A study of Mus musculus with 6 samples.

Results

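The CC chemokines are small secreted proteins, named for the adjacent cysteines near their amino terminus, that draw leukocytes along a gradient. They act through G protein-coupled receptors: CCR2 brings monocytes out of the bone marrow and into inflamed or ischemic tissue, and CCR1 guides monocytes and other leukocytes to sites of inflammation. Macrophages are both a source and a target of these ligands. The genes described here are Ccl2, Ccl3, Ccl4, Ccl5, Ccl6, Ccl7, Ccl8, Ccl9 and Ccl12, taken by gene symbol from a list drawn up with earlier results of these data known. All 9 were found among the 38087 genes of the table and all 9 passed the filter on low values, being above 0 in all 6 libraries, so they are 9 of the 18899 genes tested.

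Poly-A RNA was sequenced from bone marrow-derived macrophages of male C57BL/6J mice, 3 libraries exposed to 10 nM resolvin D1 (RvD1) for 6 h and 3 left untreated. RvD1 is a lipid mediator made from docosahexaenoic acid, and the series concerns its receptor ALX/FPR2 in myeloid cells during recovery from limb ischemia. Marrow of mice aged 8 to 10 weeks, or 2 to 4 months by another label, grew for 7 days in macrophage colony-stimulating factor (M-CSF, 10 ng/ml). All cells were then re-plated without M-CSF for 24 h before the exposure. No vehicle for the untreated cells is described, and no label says that libraries are from different animals or dishes, so p-values measure only the spread between these libraries, which may be technical.

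All values are log2 of normalized reads, with a floor at 0 that stands for 1 normalized read or less. Estimated depth was 11.1 to 16.2 M reads in RvD1 libraries and 9.05 to 14.3 M in untreated libraries. The macrophage markers were high in every library, with 10 of 10 tested and a summed level of 108200 to 138000 normalized reads in RvD1 libraries against 103800 to 133700 in untreated libraries. Markers of other cells were present too. The stromal list summed to 34840 to 54360 normalized reads with RvD1 and 38590 to 45130 without it, most of it collagen mRNA, and the neutrophil list to 4480 to 10990 and 3297 to 10930. T cell receptor component Cd3e was listed at 0 in every library.

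None of the 9 CC chemokine genes passed the test with RvD1, at a Benjamini-Hochberg adjusted p threshold of 0.05 in limma. Across all genes 1.12% were called in either direction, 0.561% higher and 0.556% lower. This main fit did not take same-numbered libraries as pairs, and whether they are pairs was not tested. With the replicate number as a block 3 members passed (Ccl7, Ccl2 and Ccl9), where 10.0% of all genes did. In the main fit the monocyte attractant Ccl7 came nearest, with a level 1.56-fold that of untreated cells. It was the only member whose groups did not overlap, 1 of 9 where 25.4% of all genes tested had groups apart in either direction. Ccl2 and Ccl4 had smaller positive differences whose unadjusted intervals lay above 0 in this fit but reached below 0 in some other settings. The other 6 intervals included 0. The most abundant members, Ccl6 and Ccl9, had intervals that reached no further than 1.26-fold and 1.35-fold on the higher side and 0.909-fold and 0.945-fold on the lower side.

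**Figure D1:**
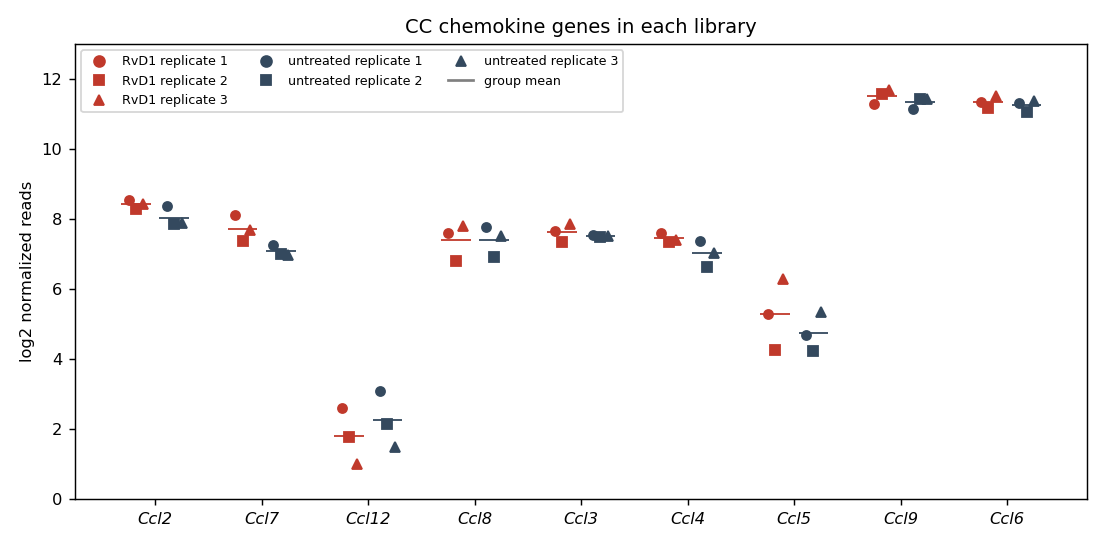
Log2 normalized reads of the 9 CC chemokine genes in each library, with RvD1 libraries to the left of untreated libraries for each gene; symbols mark the replicate number and short lines the group means. Ccl7 is the gene whose groups do not overlap, Ccl9 and Ccl6 lie above 11 in every library, and Ccl12 lies near the floor.

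All 9 genes lie on mouse chromosome 11 (mm10, coordinates from GENCODE M21) in a pair of clusters. The first runs from Ccl2 (82035571 to 82037453) through Ccl7 (82045712 to 82047525) and Ccl12 (82101845 to 82103400) to Ccl8 (82115185 to 82116799), all on the plus strand, and encodes the monocyte chemoattractant proteins. Its other ligand genes, Ccl11 and Ccl1, were listed at 0 in all 6 libraries. The start of Ccl5, in the second cluster, lies 1349 kb beyond the start of Ccl1. The second holds Ccl5 (83525778 to 83530518), Ccl9 (83572919 to 83578636), Ccl6 (83587882 to 83593087) and Ccl3 (83647844 to 83649355) on the minus strand and Ccl4 (83662584 to 83664683) on the plus strand, and encodes the macrophage inflammatory proteins with Ccl5. All 9 are annotated as protein-coding. Related as they are, 8 of them shared no 50-base stretch of transcript with any other annotated gene, and Ccl9 shared 3.64% of its stretches with other genes but with no other member. Ccl2 and Ccl6 each lie across a gene on the opposite strand, with no exonic base in common.

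Promoter sequence from RefSeq (GRCm38.p6, the assembly called mm10) was at hand for 5 members. The 100 bases just before the gene start that RefSeq gives, which for Ccl3 lies upstream of the GENCODE start, are shown for them because they include the lowest member, Ccl12, beside its much more abundant neighbour Ccl8, and the most abundant pair, Ccl9 and Ccl6. Capitals mark matches to the motifs named below.
Ccl12: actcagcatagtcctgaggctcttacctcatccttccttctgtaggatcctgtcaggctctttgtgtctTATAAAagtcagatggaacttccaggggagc
Ccl8: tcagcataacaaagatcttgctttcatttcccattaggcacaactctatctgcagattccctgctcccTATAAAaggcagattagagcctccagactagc
Ccl9: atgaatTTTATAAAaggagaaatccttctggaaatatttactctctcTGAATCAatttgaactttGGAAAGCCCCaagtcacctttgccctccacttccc
Ccl6: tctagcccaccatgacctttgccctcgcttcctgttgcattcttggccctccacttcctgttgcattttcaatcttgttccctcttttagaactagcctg
Ccl3: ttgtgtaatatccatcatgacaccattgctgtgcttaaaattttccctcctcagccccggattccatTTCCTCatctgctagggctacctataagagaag
These lie at chr11:82101745-82101844 and chr11:82115085-82115184 on the plus strand for Ccl12 and Ccl8, and at chr11:83578637-83578736, chr11:83593088-83593187 and chr11:83649379-83649478 on the minus strand for Ccl9, Ccl6 and Ccl3.

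Motifs were searched on both strands over the full 250 bases before the start, and each match is a description of letters, not a shown site. A TATA box (TATAAA) stood 31 bases before the start of Ccl12 and 32 before that of Ccl8, and Ccl9 held the same letters farther out, at 92 bases on its own strand and at 94 and 224 bases on the other. TATAAA was found in 12.4% of all 32851 promoters of that table. The NF-kB consensus, found in 7.25% of promoters, and the AP-1 motif TGANTCA, found in 6.75%, occurred in the Ccl9 promoter among these 5. The core letters GAGGAA that the macrophage factor PU.1 binds, found in 23.3%, occurred in Ccl12, Ccl8 and Ccl3. The interferon-stimulated response element, found in 2.98%, occurred in none of the 5. Aligned over 250 bases, Ccl12 and Ccl8 were the most alike pair at 55.6% identity, and the other pairs lay between 43.7% and 50.4%. Their levels were far apart, Ccl8 averaging 344 ± 111 and Ccl12 7.11 ± 3.84 normalized reads per kilobase of exon in RvD1 libraries (SD, n = 3).

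Levels were compared between members per kilobase of annotated exon. Ccl6, a rodent ligand of CCR1, was highest at 1453 ± 161 normalized reads per kb in RvD1 libraries and 1360 ± 153 in untreated libraries (SD, n = 3 each). Its relative Ccl9, also a CCR1 ligand, followed at 965 ± 136 with RvD1 and 851 ± 90.4 without it. The ranges of this pair did not overlap within either group, and both lay above all other members.

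A middle tier of 5 members had overlapping ranges between neighbours in the order. In RvD1 libraries these were Ccl8 (344 ± 111 normalized reads per kb), Ccl2 (301 ± 27.9), Ccl7 (268 ± 69.1), Ccl4 (265 ± 25.7) and Ccl3 (259 ± 45.2). In untreated libraries the order was Ccl8 (341 ± 98.6), Ccl3 (239 ± 6.23), Ccl2 (234 ± 49.1), Ccl4 (201 ± 50.9) and Ccl7 (169 ± 18.3). Ccl5 stood well below at 47.5 ± 31.5 with RvD1 and 29.5 ± 11.8 without it, and Ccl12 lowest at 7.11 ± 3.84 and 9.80 ± 5.49. The neighbours Ccl3 or Ccl7 and Ccl5, and Ccl5 and Ccl12, did not overlap within a group.

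**Figure D2:**
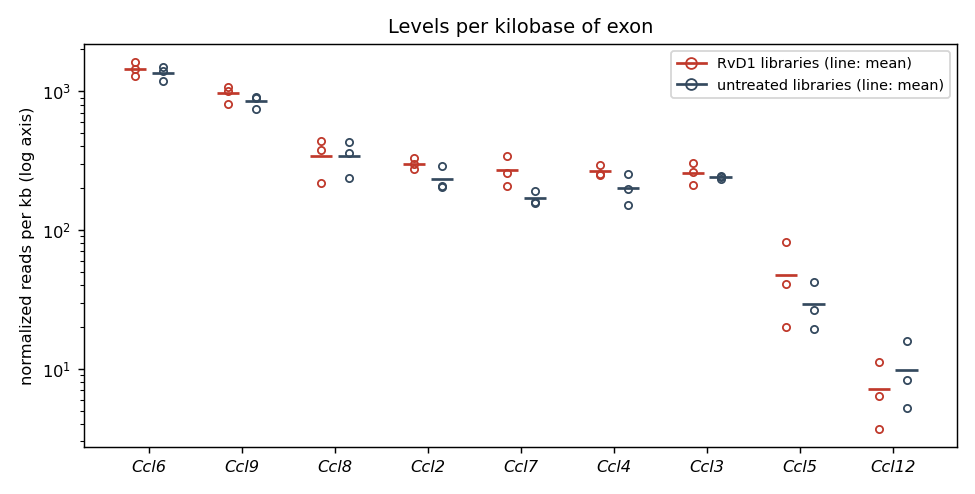
Normalized reads per kilobase of exon on a log axis for the 9 members, ordered by their mean in RvD1 libraries, with RvD1 libraries left of untreated ones and lines at the group means. Ccl6 and Ccl9 stand above a middle tier of 5 members, and Ccl5 and Ccl12 stand below it.

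The length used bears on the order of the leading pair. Before division by length, Ccl9 had more normalized reads than Ccl6 in 4 libraries and fewer in 2, the exons of Ccl9 covering 3045 bases and those of Ccl6 1795. Together Ccl6 and Ccl9 made up 79.8%, 85.2% and 83.2% of the normalized reads of the 9 members in RvD1 replicates 1, 2 and 3, against 81.5%, 86.2% and 85.7% in untreated replicates 1, 2 and 3. The 9 genes summed to 6368, 6320 and 7421 normalized reads in RvD1 libraries and 5891, 5657 and 6328 in untreated libraries, or 0.0499% to 0.0581% of all normalized reads with RvD1 and 0.0446% to 0.0495% without it. The sums overlapped, RvD1 replicate 2 lying just below untreated replicate 3, while as shares of the library all 3 RvD1 values lay above all 3 untreated ones by a narrow margin.

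Among the CCR2 ligands, Ccl7 had the largest fold change of the 9 members. Ccl7, which draws monocytes through CCR2 and also binds CCR1 and CCR3, stood at 8.10, 7.37 and 7.68 in RvD1 replicates 1, 2 and 3, against 7.25, 6.997 and 6.97 in untreated replicates 1, 2 and 3 (log2). Every RvD1 library lay above every untreated one, which was the case in that direction for 12.6% of all genes tested and in the other for 12.8%. The log2 fold change was 0.64 (SE 0.18, 95% interval 0.24 to 1.05; limma adjusted p = 0.102), placing Ccl7 at rank 1045 by p-value among all genes tested. RvD1 replicate 1 was the highest library, and without it the log2 fold change was 0.45 (SE 0.14; limma adjusted p = 0.1196).

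Ccl2, the main CCR2 ligand and the one best known for recruiting monocytes, stood at 8.55, 8.28 and 8.41 in RvD1 replicates 1, 2 and 3 and at 8.37, 7.86 and 7.89 in untreated replicates 1, 2 and 3 (log2). Untreated replicate 1 lay above RvD1 replicate 2, so the groups overlapped by that library. The log2 fold change was 0.38 (SE 0.14, 95% interval 0.05 to 0.70; limma adjusted p = 0.191). Without untreated replicate 1 it was 0.54 (SE 0.10; limma adjusted p = 0.0991), and without untreated replicate 2 it was 0.29 (SE 0.15; limma adjusted p = 0.437). The 95% interval reached below 0 without untreated replicate 2 (-0.07 to 0.64) and without the variance trend of limma (-0.04 to 0.79). It also reached below 0 without RvD1 replicate 1 (-0.06 to 0.67), without RvD1 replicate 3 (-0.01 to 0.76) and without untreated replicate 3 (-0.06 to 0.66). It did so too with the correction for length and GC (0.32, interval -0.02 to 0.66).

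Ccl12, a CCR2 ligand of the mouse, rested on an estimated 2 to 7.91 reads in RvD1 libraries and 2 to 7 in untreated libraries. It stood at 2.60, 1.77 and 0.99 with RvD1 and at 3.09, 2.15 and 1.497 without it (log2, replicates 1, 2 and 3). The log2 fold change was -0.46 (SE 0.55, 95% interval -1.70 to 0.78; limma adjusted p = 0.692), an interval too wide at this depth to show a change of the size seen for Ccl7 in either direction. Ccl8, which in the mouse signals through CCR8 among other receptors, stood at 7.59, 6.81 and 7.79 with RvD1 and at 7.78, 6.91 and 7.51 without it. Replicate 2 was low in both groups, and the group means of 7.40 ± 0.52 and 7.40 ± 0.45 were nearly equal (log2, SD, n = 3). The 95% interval of its log2 fold change of -0.00 ran from -0.64 to 0.64 (SE 0.28; limma adjusted p = 0.997).

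Among the macrophage inflammatory proteins, Ccl4, which attracts monocytes and T cells, stood at 7.60, 7.35 and 7.39 in RvD1 replicates 1, 2 and 3 and at 7.38, 6.64 and 7.03 in untreated replicates 1, 2 and 3 (log2). Untreated replicate 1 lay level with the lower RvD1 libraries and untreated replicate 2 far below them. The log2 fold change was 0.43 (SE 0.18, 95% interval 0.03 to 0.84; limma adjusted p = 0.223), and 0.24 without untreated replicate 2 (SE 0.15; limma adjusted p = 0.483). The interval of Ccl4 reached below 0 without that library (-0.10 to 0.58) and without the variance trend (-0.08 to 0.94). It did so too without RvD1 replicate 1 (-0.11 to 0.82), 2 (-0.02 to 0.98) or 3 (-0.02 to 0.95). The same held without untreated replicate 3 (-0.04 to 0.92) and with genes above 0 in 1 library admitted (-0.01 to 0.88). Of the fits with 1 library left out, only that without untreated replicate 1 kept the interval above 0 (0.27 to 0.96). With the correction for length and GC it stayed above 0 (0.47, interval 0.06 to 0.88). Its neighbour Ccl3, a ligand of CCR1, stood at 7.66, 7.34 and 7.85 with RvD1 and at 7.55, 7.48 and 7.53 without it. The untreated libraries of Ccl3 lay close to one another and inside the range of the RvD1 libraries. Its difference was 0.10 on the log2 scale (95% interval -0.19 to 0.39; limma adjusted p = 0.718).

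Ccl5, a ligand of CCR1 and CCR3 that is also induced by interferon, was the most variable of the members above the floor. It stood at 5.28, 4.26 and 6.30 in RvD1 replicates 1, 2 and 3 and at 4.68, 4.21 and 5.35 in untreated replicates 1, 2 and 3 (log2). In both groups replicate 3 was highest and replicate 2 lowest. Its log2 fold change of 0.53 had a 95% interval from -0.57 to 1.64 (SE 0.49; limma adjusted p = 0.589). It was 1.04 without RvD1 replicate 2 and 0.026 without RvD1 replicate 3 (limma adjusted p = 0.328 and 0.981), so its size rested on single libraries. With the correction for length and GC it was 0.64 (95% interval -0.47 to 1.76).

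The abundant pair, Ccl9 and Ccl6, had the narrowest intervals. Ccl9 stood at 11.28, 11.58 and 11.68 in RvD1 replicates 1, 2 and 3 and at 11.15, 11.42 and 11.43 in untreated replicates 1, 2 and 3 (log2), with replicate 1 lowest in both groups. Its log2 fold change was 0.18 (SE 0.11, 95% interval -0.08 to 0.44; limma adjusted p = 0.431), which was 0.30 without RvD1 replicate 1, 0.094 without RvD1 replicate 3, 0.086 without untreated replicate 1 and 0.053 with a correction for length and GC. Ccl6 stood at 11.35, 11.18 and 11.50 with RvD1 and at 11.30, 11.06 and 11.38 without it, with replicate 2 lowest in both groups. Its log2 fold change was 0.10 (SE 0.10, 95% interval -0.14 to 0.33; limma adjusted p = 0.655), with 0.0016 to 0.18 when 1 library was left out, lowest without untreated replicate 2 and highest without RvD1 replicate 2, and 0.042 with that correction. Each value of this pair rested on an estimated 1864 reads or more.

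**Figure D3:**
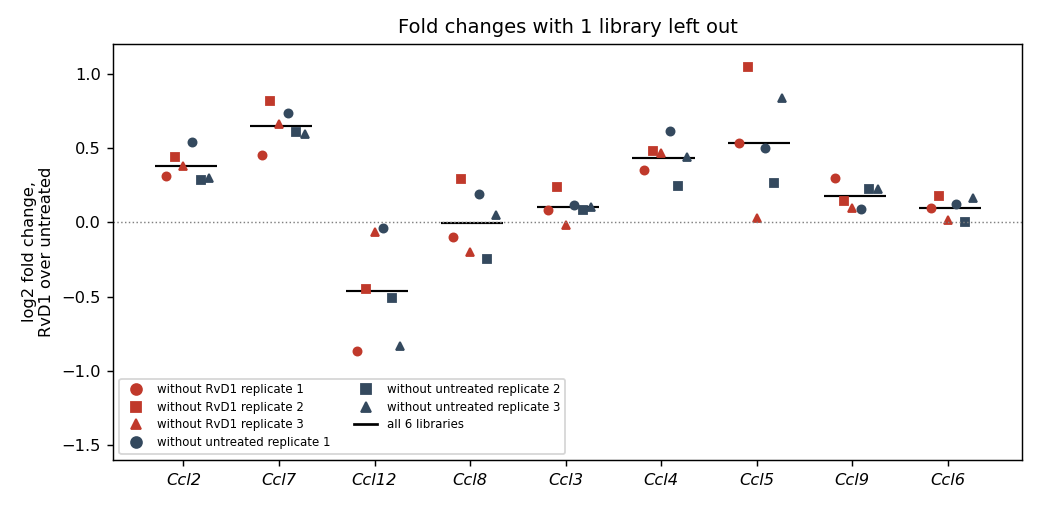
Log2 fold change of each member, RvD1 over untreated, with all 6 libraries (black line) and with 1 library left out (symbols, red for RvD1 and dark for untreated libraries). Ccl7 stays between 0.45 and 0.82, while Ccl5 runs from 0.026 to 1.04 and Ccl8 and Ccl3 take both signs.

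Read together, 7 of the 9 members had positive and 2 negative fold changes, with a median of 0.18 (log2), against 50.8% positive and a median of 0.00 over all genes tested. At an unadjusted p under 0.05, 3 members were higher and 0 lower, against 10.3% and 9.65% of all genes, or 19.9% in either direction. These shares describe 9 genes of shared origin and position. Averaged over the 8 members with a mean of at least 5, the level relative to each gene's own mean was 0.23, -0.17 and 0.38 in RvD1 replicates 1, 2 and 3 and -0.01, -0.37 and -0.06 in untreated replicates 1, 2 and 3 (log2). RvD1 replicate 2 thus lay below untreated replicates 1 and 3. Among 13168 other genes at that level, those nearest to this averaged profile included F13a1, a coagulation factor subunit made by macrophages, Npl, an enzyme of sialic acid breakdown, and Ctsc, a lysosomal peptidase. Their root mean square differences from it were 0.0834, 0.0912 and 0.0928 (log2, 6 libraries).

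The sums of some marker lists peaked in the same library as some members. RvD1 replicate 1, highest for Ccl7, Ccl2 and Ccl4, also had the highest sum of the 5 endothelial markers, at 1332 normalized reads against 508 and 681 in RvD1 replicates 2 and 3 and 373 to 622 in untreated libraries. The sum of the 6 stromal markers, most of it collagen mRNA, was highest in it as well, at 54360 normalized reads, and lowest in RvD1 replicate 2. Col1a1, Col1a2, Col3a1, Lum and Pdgfra each peaked in RvD1 replicate 1. Dcn did not, at 5.28 there against 5.54 and 5.72 in RvD1 replicates 2 and 3 (log2). The sum of the 6 mast cell and basophil markers also peaked in RvD1 replicate 1. It was 195.8, 99.28 and 170.9 normalized reads in RvD1 replicates 1, 2 and 3. Untreated replicates 1, 2 and 3 had 113.4, 78.94 and 114. Singly, Cpa3, Mcpt4 and Kit peaked in RvD1 replicate 1, Mcpt8 and Fcer1a in RvD1 replicate 3 and Ms4a2 in untreated replicate 3. Of the endothelial markers 5 of 5 had positive fold changes (median 0.67, log2), and of the mast cell and basophil markers 5 of 6 (median 0.66), with 0 past the test in limma and 1 endothelial marker at an unadjusted p under 0.05. Replicate 3, highest for Ccl5 in both groups, had the highest sum of the 10 neutrophil markers in both. That sum was 10990 normalized reads with RvD1 and 10930 without it, against 3297 to 6209 in the other 4 libraries. It was lowest in replicate 1 of each group, whereas Ccl5 was lowest in replicate 2. The match was not particular to the neutrophil list. The sum of the 10 macrophage markers was also highest in replicate 3 of each group, at 138000 with RvD1 and 133700 without it, and lowest in replicate 1. The sum of the T and NK cell list had the order of Ccl5 within each group. It was 107.7, 57.85 and 153 normalized reads in RvD1 replicates 1, 2 and 3 and 67.28, 60.62 and 119.5 in untreated replicates 1, 2 and 3. That sum was nearly all Cd4. Cd3e was at 0 in every library, and Cd3d, Cd8a, Ncr1 and Klrb1c were at most 0.99 (log2). It is thus a reading of Cd4 and does not show T or NK cells. The summed levels of all these lists overlapped between the groups, and their part in the chemokine levels was not tested. In bulk RNA a change in the number of cells of a type and a change in RNA per cell cannot be told apart.

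**Figure D4:**
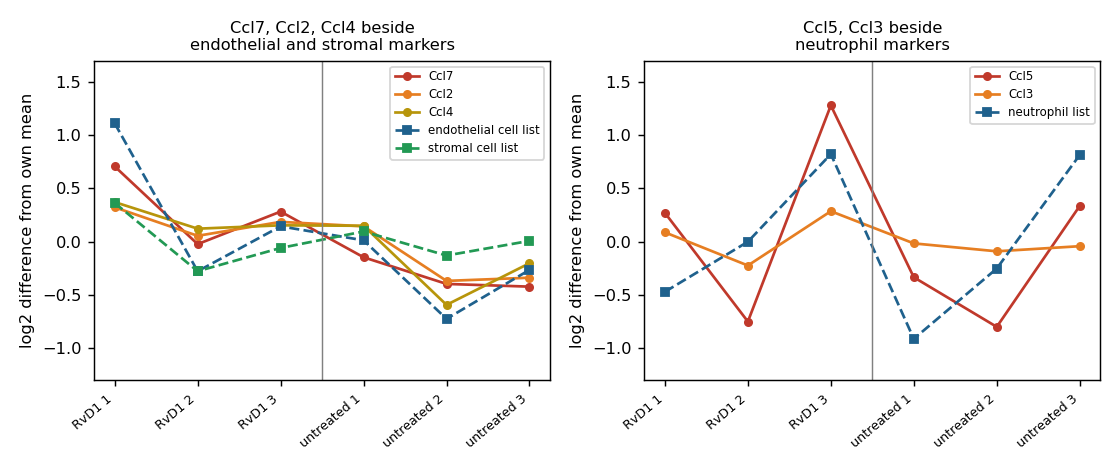
Log2 levels relative to each series' own mean in RvD1 libraries (left of the line in each panel) and untreated libraries (right of it). RvD1 replicate 1 is the highest library for Ccl7, Ccl2 and Ccl4 and for the endothelial and stromal marker sums, and replicate 3 is the highest of each group for Ccl5 and for the neutrophil marker sum.

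Of 12 other CC ligand genes, 6 were listed at 0 in all libraries, among them the eosinophil attractant Ccl11, and 5 were tested. Of these 5, 0 passed in limma (1, on the lower side, had an unadjusted p under 0.05), with a median log2 fold change of 0.29. The 1 with the smallest p, Ccl27a, a skin-homing chemokine, stood at 1.80, 0 and 1.15 in RvD1 replicates 1, 2 and 3 and at 2.74, 2.19 and 2.68 in untreated replicates 1, 2 and 3 (log2). The groups did not overlap, near the floor (limma adjusted p = 0.143). That was the case in this direction for 12.8% of all genes tested. Ccl25, the thymic and gut ligand of CCR9, had a log2 fold change of 0.32 (95% interval -0.17 to 0.81; limma adjusted p = 0.449), and 0.16 with the correction for length and GC.

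Of 10 CC receptor genes 7 were tested and 0 passed in limma (1, on the lower side, had an unadjusted p under 0.05; median log2 fold change -0.014). Ccr1 averaged 10.35 ± 0.16 with RvD1 and 10.17 ± 0.14 without it, and Ccr2 8.91 ± 0.28 and 8.56 ± 0.27 (log2, SD, n = 3 each). Their log2 fold changes were 0.18 and 0.35 (limma adjusted p = 0.353 and 0.279), and the interval of Ccr2, which binds Ccl2, Ccl7 and Ccl12, ran from -0.02 to 0.72. With the correction for length and GC they were 0.0066 for Ccr1 and 0.12 for Ccr2. Without RvD1 replicate 3 they were 0.087 and 0.19, and without untreated replicate 2 they were 0.11 and 0.20. Ccr3 averaged 6.78 ± 0.31 and 6.89 ± 0.18 (log2 fold change -0.11; limma adjusted p = 0.761). The other 4 tested receptors, Ccr7, Ccr9, Ccr10 and Ccr1l1, had values of at most 3.801 in every library, and their adjusted p-values lay between 0.227 for Ccr1l1 and 0.992 for Ccr7 in limma. Ccr6 and Ccr8 were listed at 0 in all libraries.

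The atypical receptors, which bind chemokines without signalling through G proteins, gave 4 tested genes of 5 and 0 calls (limma; 0 at an unadjusted p under 0.05; median log2 fold change 0.27). Ccrl2, which presents the attractant chemerin, averaged 6.64 ± 0.22 with RvD1 and 6.22 ± 0.67 without it (log2 fold change 0.42; limma adjusted p = 0.484), and without untreated replicate 1 its fold change was 0.034. Ackr3, Ackr4 and Ackr2 had log2 fold changes of 0.27, 0.23 and 0.28 (limma adjusted p = 0.748, 0.855 and 0.867).

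**Figure D5:**
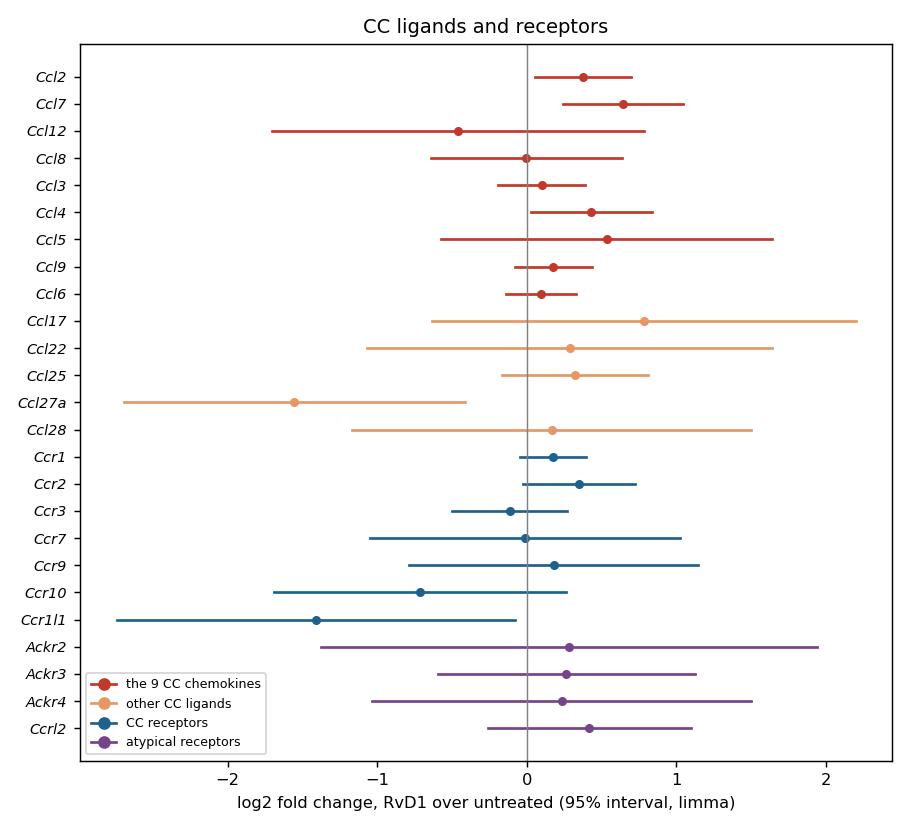
Log2 fold change with its 95% interval from limma, RvD1 over untreated, for the 9 CC chemokines, the 5 other tested CC ligands, the 7 tested CC receptors and the 4 tested atypical receptors. The intervals of Ccl7, Ccl2 and Ccl4 lie above 0 and those of Ccl27a and Ccr1l1 below it, and none of these genes passed after adjustment over all genes.

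Beyond the members, 85 genes of the ligand, receptor and pathway lists were tested and 3 passed in limma, where 1.12% of all genes did. Of 17 genes of sensing and signalling upstream, 1 rose, 0 fell and 16 did not pass (median log2 fold change 0.07). Unadjusted p in limma was under 0.05 for 4 higher and 0 lower, where 10.3% and 9.65% of all genes were. Tlr4, the receptor for endotoxin, stood at 10.43, 10.64 and 10.59 with RvD1 and at 10.16, 10.18 and 10.11 without it, which gave 0.40 as log2 fold change (SE 0.07, 95% interval 0.25 to 0.55; limma adjusted p = 0.0387). Of 26 transcriptional regulators of chemokine genes, 1 rose, 1 fell and 24 did not pass (median 0.08). At an unadjusted p under 0.05 in limma, 3 were higher and 6 lower, beside those same shares of all genes. Fosl2, an AP-1 subunit, rose by 0.31 on the log2 scale (SE 0.05; limma adjusted p = 0.0386). Nfkbib, an inhibitor that holds NF-kB in the cytoplasm, fell by 0.49 on the log2 scale (SE 0.09; limma adjusted p = 0.0478). These 3 calls each ended without any one of RvD1 replicates 2 and 3 and untreated replicates 1, 2 and 3, and that of Nfkbib also without RvD1 replicate 1, the adjusted p then lying between 0.0547 and 0.177. They also ended once length and GC content of transcripts were modelled, where Tlr4 went to 0.20 and Nfkbib to -0.32 (limma adjusted p = 0.198 and 0.157).

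Of 17 genes that carry the receptors' signal, 0 passed in limma (median log2 fold change -0.00). Unadjusted p was under 0.05 for 3 higher and 2 lower, where 10.3% and 9.65% of all genes were. The smallest p-values belonged to Arrb2, a beta-arrestin that desensitizes chemokine receptors, at -0.26 (SE 0.07; limma adjusted p = 0.0913), and to Rgs1, which shortens G protein signalling, at 0.45 (SE 0.12; limma adjusted p = 0.0977). With the correction for length and GC they were -0.13 and 0.16 (limma adjusted p = 0.436 and 0.565). Of 9 genes that set the stability of chemokine mRNA, 0 passed as well in limma (median 0.01). Unadjusted p was under 0.05 for 3 higher and 2 lower, beside the same shares of all genes. Khsrp, which promotes decay of mRNA with AU-rich elements, stood at -0.19 (SE 0.05; limma adjusted p = 0.102) and Tia1, which holds back their translation, at 0.27 (SE 0.07; limma adjusted p = 0.0913), and with that correction they were -0.082 and 0.099.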

How the data were processed

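RNA sequencing of 3 RvD1 and 3 untreated libraries was analysed from 1 deposited table, with columns headed as normalized values, per the file headers. The submitters' processing notes name TopHat2 2.0.7 and mm10. Of the counting and scaling of reads, nothing is given in the sources used here. Deposited values, written with decimal commas, were read as log2 normalized reads: all lay between 0 and 17.4 and their antilogs summed to 12.4 to 12.8 M per library. Libraries were made with 100 to 400 ng of RNA with the TruSeq RNA kit, per the labels' protocols, which does not mark strand. Depth was estimated from the step of 1 read among low values, of which 35.9% to 50.1% lay within 0.02 reads of a whole number up to 20 reads, so no count test was run.

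Groups and replicate numbers came from sample titles. Genes above 0 in at least 3 libraries were tested with limma 3.58.1 in R 4.3.3 (treatment alone, variance trend, two-sided, Benjamini-Hochberg over all 18899 genes, threshold 0.05). The fit held 4 residual and 4.62 prior degrees of freedom. Its code was also run on simulated reads without shared deviations between libraries, which does not give its error rate in these data. Other settings were another filter, quantile normalization, median centring, a pseudocount of 10, no trend, library weights, leaving out each library, a replicate block, and splines with 4 knots in transcript length and GC content. The members and lists were chosen with earlier results of these data known. Named genes were the members, every tested receptor, genes past the test or the 2 smallest p-values per list, and the 5 profiles nearest to the members' average; numbered gene models were left out, and 1 receptor gene is not reported here. Annotation was GENCODE M21 (95.3% of identifiers found); tables and figures used Python 3.11.15, pandas 2.3.3, numpy 2.4.6 and matplotlib 3.10.9.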

Additional observations from a re-analysis of the deposited data

How the results depend on the processing

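The count of members past the test was 0 in all 14 other settings without a replicate block, leaving out 1 library included. Deviations of same-numbered libraries correlated at 0.30, -0.08 and 0.42 over 13176 genes for numbers 1, 2 and 3. Between differently numbered libraries the correlations ran from -0.39 (RvD1 replicate 3, untreated replicate 1) to 0.088 (RvD1 replicate 1, untreated replicate 2). Numbers 1 and 3 thus had the highest values of all combinations. Number 2 did not, so the numbers were not taken as pairs in the main fit. Whether they are pairs was not tested, and the count of members past the test depended on this choice. With a replicate block 3 members passed (Ccl7, Ccl2 and Ccl9, limma adjusted p = 0.0149, 0.0320 and 0.0366), where 10.0% of all genes did. With the block plus a correction for length and GC 1 did (Ccl7, limma adjusted p = 0.0462), where 4.13% of all genes did. Calls over all genes numbered 12 with genes above 0 in 1 library admitted, 464 at a mean of at least 5, 1 without the variance trend, 566 with library weights, 1896 with the replicate block, 38 with the length and GC correction, 766 with both, and 0 to 451 with 1 library left out. Calls in the pathway lists, 3 in all, became 0 with the first filter, 0 without the trend, 22 with the replicate block, 0 with the correction, 10 with both and 0 to 4 with 1 library left out. Some fold changes changed sign between settings. With 1 library left out the log2 fold change ran from -0.019 to 0.24 for Ccl3, -0.25 to 0.29 for Ccl8, -0.28 to 0.029 for Ccr3, -0.50 to 0.30 for Ccr7, -0.10 to 0.52 for Ccr9, -0.23 to 0.98 for Ackr2, -0.080 to 0.61 for Ackr3 and -0.31 to 0.58 for Ackr4. Ccl8 was 0.18 with library weights and 0.023 with the correction, with or without the replicate block; Ccr7 was 0.072 with the correction, with or without the block, 0.026 with the pseudocount and 0.19 with library weights. The causes were not tested. Ccl12, at 2 to 7.91 estimated reads, is limited by depth and has no value at a mean of at least 5.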
